A study of Homo sapiens with 4 samples.

Results

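The genes of the collagen chains and of the proteins that modify, fold, trim and crosslink collagen were examined in human liver cancer cells with and without knockdown of UBXN1. The members were the protein-coding genes whose symbol is COL, a number, A and a number, together with P4HA1 to P4HA3, PLOD1 to PLOD3, LOX, LOXL1 to LOXL4, SERPINH1 and BMP1. They numbered 57 of the 61541 genes in the count table, of which 44 encode collagen chains and 13 encode processing proteins. RNA of MHCC97H cells, a human hepatocellular carcinoma line, was sequenced in 4 libraries. Control cells (shCon) gave 2 libraries and cells carrying an shRNA against UBXN1 (shUBXN1), a protein with ubiquitin-binding and UBX domains, gave the other 2. By the study's methods the shRNAs were cloned in pLKO.1 and delivered by lentivirus, and the control is called shRFP there. Which of the UBXN1 shRNAs was sequenced, and whether the libraries of a group came from separate cultures, is not given in the sources used here, so p-values measure only the spread between these libraries.

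Collagens are secreted proteins built of chains wound into a rope-like helix of identical or different subunits. In the endoplasmic reticulum, prolyl 4-hydroxylases stabilise the helix, lysyl hydroxylases prepare lysines for sugars and crosslinks, and the chaperone HSP47, encoded by SERPINH1, binds the folded helix. After secretion the proteinase encoded by BMP1 trims procollagen, and enzymes of the lysyl oxidase family crosslink the assembled fibers. In liver, stellate cells and fibroblasts are the classical source of fibrillar collagen, and tumor cells also make some collagens.

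UBXN1 itself had 1788 and 1817 counts in the shCon libraries and 416 and 433 counts in the shUBXN1 libraries, a log2 fold change of -2.03 with a standard error (SE) of 0.0963. The libraries held 23373700 to 27380508 counts. All 9 markers of the labelled cell type reached 10 counts in a library, and their summed level was 5380 and 5427 TPM in shCon and 4618 and 5034 TPM in shUBXN1, nearly all of it KRT8 and KRT18. TPM, a level per transcript length and library size, was computed from the counts and the gene lengths of the table and is used here for levels compared between genes. ALB, the plasma albumin gene, was at 16 and 14.8 TPM in shCon and 3.99 and 4.21 TPM in shUBXN1. TF, APOB, TTR and KRT8 were also lower in both shUBXN1 libraries, with TF at 10.4 and 9.05 TPM in shCon and 2.76 and 2.44 TPM in shUBXN1. SERPINA1, the alpha-1-antitrypsin gene, was higher, at 10.3 and 10.9 TPM in shCon and 14.5 and 14.6 TPM in shUBXN1, as was KRT18. The groups overlapped for APOA1 and AFP. Of 9 fibroblast and stellate cell markers, 4 reached 10 counts in any library and PDGFRA was at 0 in all 4 libraries. Their summed level was 27.8 and 27.2 TPM in shCon and 14.6 and 15.2 TPM in shUBXN1, most of it LUM. The summed level of 4 endothelial markers was 15.2 and 15.2 TPM in shCon and 31.9 and 32.1 TPM in shUBXN1, most of it PECAM1 and KDR, and 3 leukocyte markers summed to 83.3 to 102 TPM, nearly all of it CD68, with CD3E at 0. The part of these markers in the results was not tested. In bulk RNA, fewer cells that express a gene cannot be told apart from less of its RNA per cell.

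Across the collagen module, more genes were higher than lower in shUBXN1 cells. The highest fold changes were at chains of low level, led by COL7A1, COL1A1, COL11A2 and COL5A1. All of these but COL7A1 entered the test only through shUBXN1, where they were high. Over all genes tested, those of low level also rose at least 2-fold more often than the others. The crosslinking enzymes LOXL2 and LOXL4, the prolyl 4-hydroxylase P4HA1 and the proteinase BMP1 were higher too. LOXL3 was also called higher, but it would not have entered the test without shUBXN1. SERPINH1 fell the most among members with over 10 TPM, and the lysyl hydroxylases PLOD1 and PLOD2 and the transmembrane collagen COL17A1 also fell. Of the most abundant collagen transcripts, COL6A1 was higher (log2 fold change 0.30), a call lost with the GC trend removed. COL6A2 passed in neither direction in the fit reported.

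Enough counts for a test were found for 33 members, 21 collagen chains and 12 processing genes. With a threshold of 0.05 on the p-value of edgeR's quasi-likelihood test, adjusted by Benjamini and Hochberg's method over all 16863 genes tested, 21 members were higher, 5 were lower and 7 passed in neither direction. Of all genes tested, 28% were higher and 28.2% were lower by the same rule, against 63.6% and 15.2% of the members tested. By the study's thresholds, a change of at least 2-fold with p under 0.05 before adjustment, applied here to edgeR's test, 10 members were higher and 2 lower, where 11.8% of all genes tested were higher and 6.09% were lower. Over all genes, those of low level passed as higher by these thresholds more often. At a mean log2 CPM at or below 2, 6 of 13 members were higher and 1 lower, beside 1267 and 421 of 4870 genes. Above 2, 4 of 20 members were higher and 1 lower, beside 730 and 606 of 11993 genes. The pooled shares therefore mix a difference by level with one between members and other genes. The study names limma as its test. With limma on log2(TPM + 1), 5 members were higher and 1 lower, beside 1028 and 524 of the 16863 genes. The median log2 fold change was 0.47 over the members tested and 0.016 over all genes tested. The collagen chains had 13 higher and 2 lower genes, and the processing genes 8 higher and 3 lower.

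A gene entered the test only with about 0.419 CPM, counts scaled by library size, in at least 2 libraries, so a low gene could enter through the group in which it is high. Of the members tested, 6 were below that level in at least 1 library: COL11A2, COL1A1, COL5A1 and COL8A2 were below it in both shCon libraries, LOXL3 in 1 shCon library and COL21A1 in 1 shUBXN1 library. None of the 6 would have entered without the group in which it was high, so their calls are no independent sign of a difference. Over the 27 members at that level in all 4 libraries, 16 were higher and 4 lower and the median log2 fold change was 0.30, beside 27% higher, 30.8% lower and a median of -0.023 over the 14815 genes of that kind. At the 2-fold threshold, 5 of these 27 were higher and 1 was lower, beside 1188 and 800 of the 14815 genes. The members' transcripts were rich in G and C, with a median GC content of 61.0% against 48.2% over all genes tested. Once each library's trend on GC content was removed, 15 members were higher and 7 lower, where 25.4% of all genes were higher and 30.4% were lower.

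**Figure D1:**
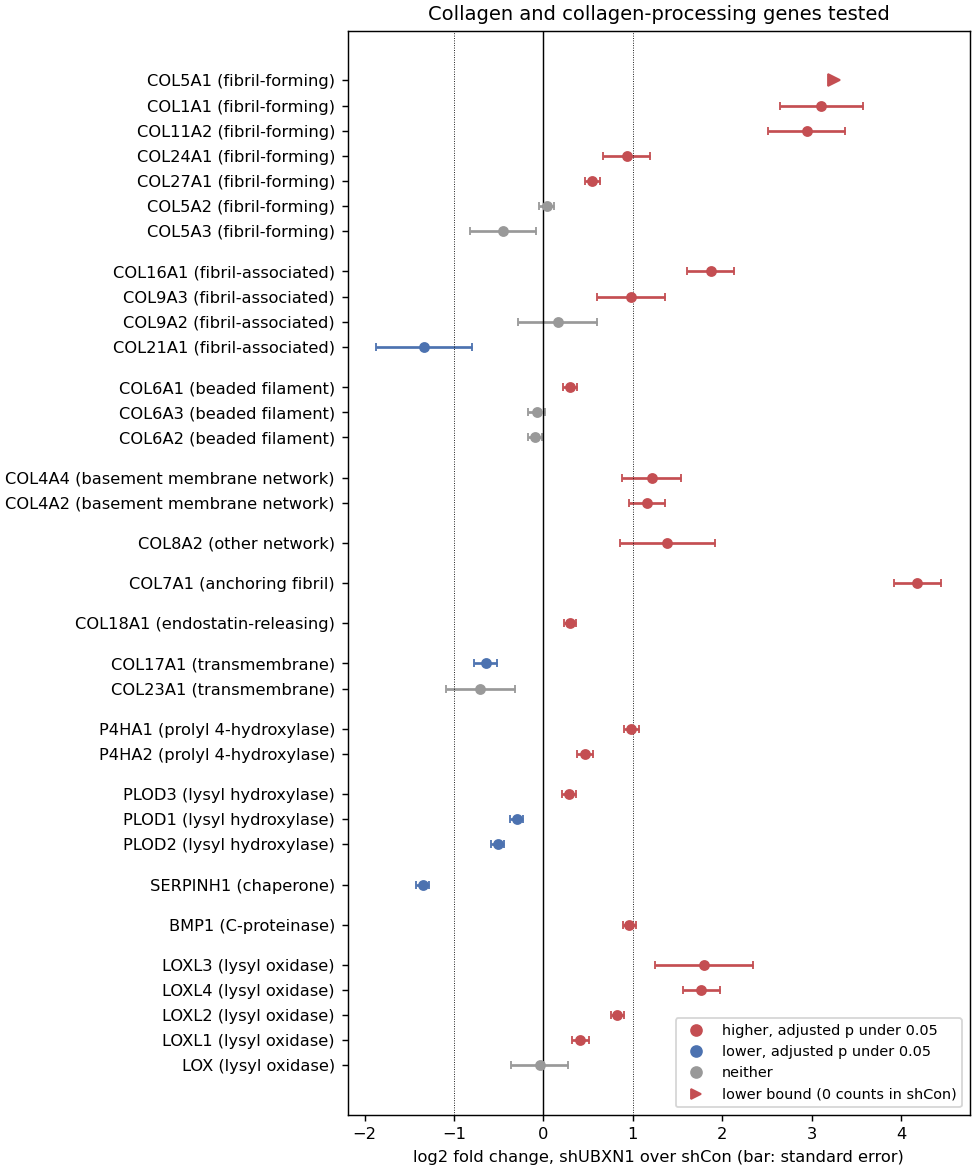
Log2 fold change of shUBXN1 over shCon (horizontal axis) for each of the 33 members tested, grouped by role, with bars for the standard error and dotted lines at a fold change of 2. The triangle for COL5A1 is a lower bound, since it had 0 counts in both shCon libraries. Points right of 0 outnumber those left of it, COL7A1 lies farthest right among the fitted values, and SERPINH1 and COL21A1 lie farthest left.

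The promoters of 3 members are shown because these genes carry the main contrasts: COL7A1, the chain with the highest fitted fold change among those with counts in all libraries, SERPINH1, the member that fell the most with a small error, and COL4A2, which shares its promoter with COL4A1. The sequences run from 250 bases before to 50 bases after the RefSeq start (GRCh38.p14), 5′ to 3′ on the gene's own strand. Capitals mark letter matches, on either strand, of the CCAAT box, of the GC box with the letters GGGCGG, of a pair of heat shock half-sites with the letters GAANNTTC, of the TATA box with the letters TATAAA, and of the hypoxia element core with the letters ACGTG. In these windows no match overlapped a match of another motif.
COL7A1, chr3:48595280-48595579, minus strand: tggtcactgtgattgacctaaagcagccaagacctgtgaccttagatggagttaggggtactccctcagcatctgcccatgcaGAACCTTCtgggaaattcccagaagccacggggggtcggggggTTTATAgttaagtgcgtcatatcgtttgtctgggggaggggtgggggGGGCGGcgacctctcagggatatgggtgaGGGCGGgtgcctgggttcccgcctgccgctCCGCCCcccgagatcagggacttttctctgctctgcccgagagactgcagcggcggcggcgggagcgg
SERPINH1, chr11:75562003-75562302, plus strand: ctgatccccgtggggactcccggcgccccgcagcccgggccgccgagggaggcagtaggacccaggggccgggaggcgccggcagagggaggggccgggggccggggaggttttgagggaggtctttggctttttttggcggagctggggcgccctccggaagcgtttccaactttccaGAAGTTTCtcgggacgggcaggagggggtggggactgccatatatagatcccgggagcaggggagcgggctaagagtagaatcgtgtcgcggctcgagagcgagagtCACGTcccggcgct
COL4A2, chr13:110307034-110307333, plus strand: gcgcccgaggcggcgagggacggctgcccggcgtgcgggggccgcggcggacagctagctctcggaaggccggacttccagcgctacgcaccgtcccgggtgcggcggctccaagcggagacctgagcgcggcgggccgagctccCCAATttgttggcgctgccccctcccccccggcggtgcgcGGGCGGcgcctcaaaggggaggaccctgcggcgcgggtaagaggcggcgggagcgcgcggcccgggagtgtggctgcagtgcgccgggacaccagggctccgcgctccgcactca

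The COL7A1 window held 3 matches of GGGCGG, 1 of GAANNTTC and 1 of TATAAA. The SERPINH1 window held 1 match of GAANNTTC and 1 of ACGTG. Promoters were found for 42 of the 57 members, and of these 13 held CCAAT, 23 held GGGCGG, 6 held GAANNTTC, 6 held TATAAA and 9 held ACGTG. Of 35116 promoters of the same length, 34.6% held CCAAT, 45% GGGCGG, 6.77% GAANNTTC, 11.5% TATAAA and 21.4% ACGTG. A match of letters is a description of the window and no measure of binding.

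COL7A1 encodes the chain of the anchoring fibrils that fasten basement membranes to the tissue beneath (chr3:48564073-48595329 in GRCh38, GENCODE 44). Its level was 0.750 and 0.936 CPM in the shCon libraries and 18.7 and 11.9 CPM in the shUBXN1 libraries, from 20 and 22 counts against 464 and 278 counts. The groups did not overlap, and the lowest shUBXN1 library was far above both shCon libraries. The log2 fold change was 4.18 (SE 0.266), or 18.2-fold, with an adjusted p of 1.45e-08 by edgeR's quasi-likelihood test. The shUBXN1 libraries differed between themselves, and without shUBXN1 replicate 1 the log2 fold change was 3.81. On the TPM scale COL7A1 reached 4.4 and 2.59 in shUBXN1, below 1% of the summed collagen TPM.

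Of the 11 fibril-forming chains, 5 were higher, 2 passed in neither direction and 4 were too low to test. Among the higher chains, COL1A1, COL5A1 and COL11A2 entered the test through shUBXN1, so their calls are no independent sign of a difference. COL1A1 encodes a chain of type I collagen, the main fibrillar collagen of the body, and COL5A1 a chain of type V collagen, which sits inside type I fibrils. COL1A1 was at 0.375 and 0.170 CPM in shCon and 2.34 and 2.52 CPM in shUBXN1. COL5A1 had 0 counts in both shCon libraries and 30 and 25 counts in the shUBXN1 libraries. In both genes the groups did not overlap, and in both the level stayed low, under 1 TPM in all 4 libraries. The log2 fold change of COL1A1 was 3.11 (SE 0.468, adjusted p = 5.83e-05), and 3.79 without shCon replicate 1. With 3 counts per library as the floor, COL5A1 was at least 9.49-fold higher in shUBXN1 (adjusted p = 3.79e-05 by edgeR's quasi-likelihood test).

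COL11A2, a chain of the type XI collagen of cartilage, was at 0.413 and 0.255 CPM in shCon and 2.91 and 2.35 CPM in shUBXN1. Both shUBXN1 libraries were well above both shCon libraries, with a log2 fold change of 2.94 (SE 0.433, adjusted p = 4.71e-05). COL24A1 was at 2.66 and 2.60 CPM in shCon and 6.10 and 3.93 CPM in shUBXN1, a log2 fold change of 0.93 (SE 0.262, adjusted p = 0.00752). Its shUBXN1 replicate 1 was the highest, and without that library the log2 fold change was 0.57 with an adjusted p of 0.118, and with limma the adjusted p was 0.0583. COL27A1, the fibril-forming chain with the highest level, was at 60.5 and 61.7 CPM in shCon and 95.5 and 82.6 CPM in shUBXN1, a log2 fold change of 0.54 (SE 0.0829, adjusted p = 6.53e-05). The shUBXN1 libraries were above the shCon libraries without overlap.

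The other type V chains did not follow COL5A1 past the threshold. COL5A2 was at 42.8 and 38.1 CPM in shCon and 42.0 and 40.9 CPM in shUBXN1, with the shUBXN1 values inside the shCon range (log2 fold change 0.04, SE 0.0858). COL5A3 was at 2.70 and 1.53 CPM in shCon and 1.82 and 1.28 CPM in shUBXN1, with overlapping groups (log2 fold change -0.45, SE 0.373). The partner chain of COL1A1 in type I collagen, COL1A2, had 9 and 1 counts in shCon and 11 and 6 in shUBXN1 and was not tested. COL3A1, the chain of type III collagen, had 7 and 15 counts in shCon and 4 and 3 in shUBXN1, and COL2A1, the chain of cartilage type II collagen, had 0 and 1 in shCon and 10 and 8 in shUBXN1. COL11A1 was at 0 in all libraries. At such counts a change between the groups was not assessed.

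**Figure D2:**
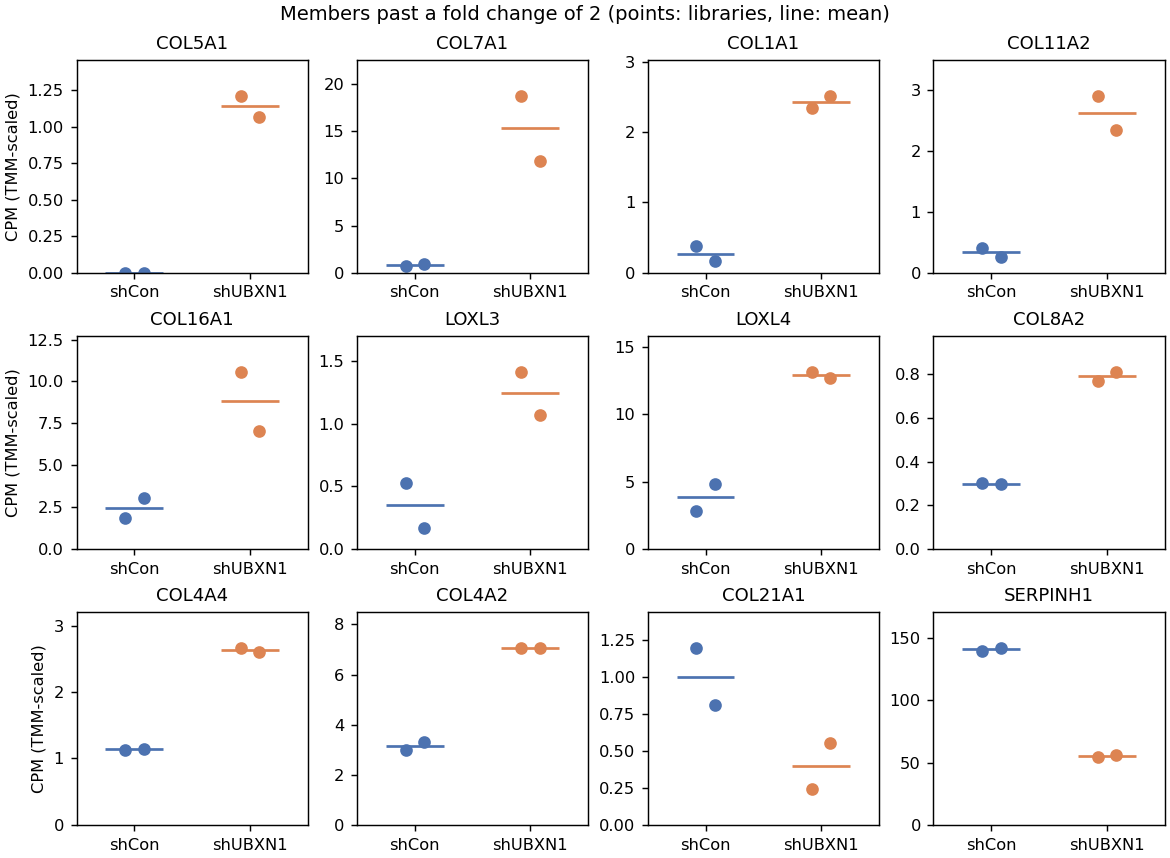
TMM-scaled CPM (vertical axes, each from 0 on its own scale) of the 12 members past a fold change of 2, for the 2 shCon and 2 shUBXN1 libraries (points) with their mean (line). In none of the 12 do the groups overlap, but they were picked by fold change and p, and the share over all genes was not counted. COL5A1 is at 0 in shCon, and COL21A1 and SERPINH1 are the 2 that are lower in shUBXN1.

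Type IV collagen forms the network of basement membranes, and its 6 genes lie in the genome as 3 head-to-head pairs. The RefSeq starts of COL4A1 and COL4A2 are 127 bases apart, those of COL4A3 and COL4A4 419 bases and those of COL4A5 and COL4A6 380 bases. The COL4A2 promoter printed above therefore also holds the COL4A1 start, at position 110307157 on the other strand. COL4A2 was at 3.0 and 3.32 CPM in shCon and 7.07 and 7.05 CPM in shUBXN1, and the libraries of each group lay close together, far from the other group. The log2 fold change was 1.16 (SE 0.203, adjusted p = 0.000225). COL4A1, its neighbour, had 5 and 0 counts in shCon and 2 and 1 in shUBXN1, too few to test.

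COL4A4 was at 1.13 and 1.15 CPM in shCon and 2.67 and 2.61 CPM in shUBXN1, again without overlap (log2 fold change 1.21, SE 0.332, adjusted p = 0.00642), though it missed the threshold with limma on log2(TPM + 1) (0.34, adjusted p = 0.0511). COL4A3, which lies opposite to it, had 3 and 3 counts in shCon and 10 and 9 in shUBXN1, below the filter, and 6.82% of its exon bases lie opposite MFF-DT on the other strand. COL4A5 had 3 to 6 counts and COL4A6 0 to 2 counts. Of the other network-forming chains, COL8A2 was at 0.30 and 0.298 CPM in shCon and 0.768 and 0.812 CPM in shUBXN1 (log2 fold change 1.39, SE 0.533, adjusted p = 0.0385). These values rest on few counts, and COL8A2 lost its call when any of the 4 libraries was left out (adjusted p from 0.0974 to 0.133), with the GC trend removed (0.0775), with no filter on low counts (0.0797), with DESeq2 (0.186) and with limma (0.0946). COL8A1 had 4.58 to 24.6 counts and COL10A1 0 to 9 counts.

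Type VI collagen, whose chains assemble into beaded filaments around cells, had the most abundant collagen transcripts in these cells, those of COL6A1 and COL6A2. COL6A1 was at 353 and 338 TPM in shCon and 460 and 425 TPM in shUBXN1, and COL6A2 at 199 and 192 TPM in shCon and 204 and 178 TPM in shUBXN1. COL6A1 was higher in shUBXN1 without overlap (log2 fold change 0.30, SE 0.0784, adjusted p = 0.00496). The COL6A2 groups overlapped in TPM. In CPM they lay close together without overlap, at 338 and 334 in shCon against 324 and 305 in shUBXN1 (log2 fold change -0.09, SE 0.0747, adjusted p = 0.307). With the GC trend removed the log2 fold changes were 0.037 for COL6A1 (adjusted p = 0.741) and -0.42 for COL6A2 (adjusted p = 0.000298), so which of the chains passed depended on that step. Without shCon replicate 1 or 2 COL6A1 lost its call (adjusted p = 0.134 and 0.167), and without shUBXN1 replicate 1 COL6A2 passed as lower (log2 fold change -0.14, adjusted p = 0.0399). COL6A3 was at 9.67 and 7.90 TPM in shCon and 8.53 and 8.79 TPM in shUBXN1, the latter inside the shCon range.

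The ratio of COL6A1 to COL6A2 TPM was 1.77 in both shCon libraries and 2.25 and 2.39 in the shUBXN1 libraries. Both shUBXN1 ratios were above the shCon ratios, but with 2 libraries against 2 the smallest two-sided p of an exact permutation test is 0.333, so that test could not pass, and the ratio was not tested in another way. COL6A5 was at 0 in all libraries and COL6A6 had 0 to 2 counts.

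Summed over all 44 chains, collagen transcripts made up 659 and 631 TPM in shCon and 808 and 731 TPM in shUBXN1. The sum was not tested. COL6A1, its largest part, and COL18A1 lost their calls with the GC trend removed (log2 fold changes 0.037 and -0.052). COL6A1 gave 53.5% and 53.6% of the sum in shCon and 56.9% and 58.2% in shUBXN1, and COL6A2 gave 30.3% and 30.4% in shCon and 25.3% and 24.4% in shUBXN1. COL6A1, COL6A2, COL6A3, COL18A1, COL27A1 and COL5A2 together gave 96.5% to 97.5% of the sum in each library. The chains with the highest fold changes thus added little to the sum. COL7A1 went from 0.165 and 0.200 to 4.4 and 2.59 TPM, and COL1A1, COL5A1 and COL11A2 stayed under 1 TPM in all 4 libraries. The fibril-forming class went from 30.7 and 28.2 TPM to 45 and 37.0 TPM. In it, COL27A1 was at 15.8 and 15.6 TPM in shCon and 26.5 and 21.3 TPM in shUBXN1.

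**Figure D3:**
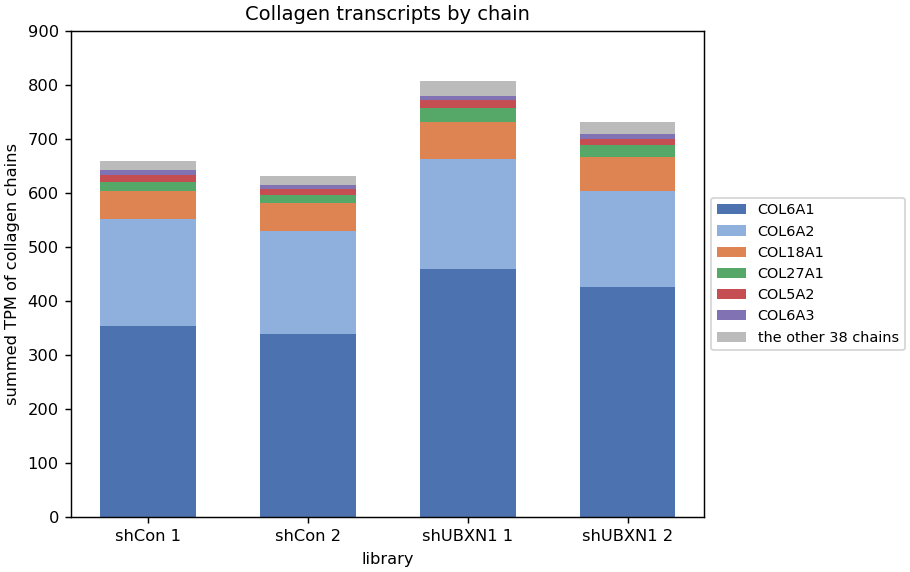
Summed TPM of the collagen chains (vertical axis) in each of the 4 libraries, with a segment for each of the 6 most abundant chains and one for the other 38. COL6A1 and COL6A2 fill most of each bar, and the shUBXN1 bars (808 and 731 TPM) stand above the shCon bars (659 and 631 TPM), a difference that was not tested.

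COL18A1, whose product carries the endostatin fragment and is a basement membrane collagen made by hepatocytes, was at 169 and 170 CPM in shCon and 207 and 210 CPM in shUBXN1. The groups did not overlap (log2 fold change 0.30, SE 0.0712, adjusted p = 0.00257), but with the GC trend removed the log2 fold change was -0.052 (adjusted p = 0.590). Without shCon replicate 1 or 2 the adjusted p was 0.0683 and 0.0611. The gene also shares 18.5% of its exon bases with SLC19A1 on the opposite strand, and where counting ignored strand the reads of the pair cannot be told apart. COL15A1, the other endostatin-type collagen, was at 0 in all libraries.

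Of the 10 fibril-associated chains, which decorate fibrils or link them to other matrix, COL16A1 and COL9A3 were higher, COL21A1 was lower, COL9A2 passed in neither direction and 6 were too low to test. COL16A1 was at 1.84 and 3.02 CPM in shCon and 10.6 and 7.05 CPM in shUBXN1, without overlap (log2 fold change 1.87, SE 0.262, adjusted p = 3.11e-05). COL9A3 was at 1.54 and 0.936 CPM in shCon and 1.90 and 3.03 CPM in shUBXN1, a narrow gap between the groups (log2 fold change 0.98, SE 0.378, adjusted p = 0.0391). Without shCon replicate 2 or shUBXN1 replicate 2 the COL9A3 call was lost (log2 fold change 0.68 and 0.61, adjusted p = 0.216 and 0.275), as it was with the GC trend removed (0.63, adjusted p = 0.173) and with DESeq2 (adjusted p = 0.0987). COL9A2 was at 0.938 and 0.766 CPM in shCon and 1.05 and 0.854 CPM in shUBXN1, with overlapping groups.

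COL21A1 was at 1.2 and 0.809 CPM in shCon and 0.242 and 0.555 CPM in shUBXN1, lower in both shUBXN1 libraries (log2 fold change -1.34, SE 0.538, adjusted p = 0.0470). It would not have entered the test without shCon, where it was high, so this is no independent sign of a difference. Its call was lost without shCon replicate 1 (-1.02, adjusted p = 0.233) and without shUBXN1 replicate 1 (-0.86, adjusted p = 0.260), and the value was -2.03 without shUBXN1 replicate 2. It was also lost with DESeq2 (adjusted p = 0.167), limma (0.104) and total count scaling (0.0749). COL12A1 had 1.97 to 6 counts, COL14A1 0 to 2, COL22A1 0 to 1 and COL9A1 0 to 1, and COL19A1 and COL20A1 were at 0 throughout.

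The transmembrane collagens stay anchored in the cell membrane. COL17A1, a component of hemidesmosomes, was at 21.5 and 22.8 CPM in shCon and 16 and 12.2 CPM in shUBXN1. Both shUBXN1 libraries were below both shCon libraries (log2 fold change -0.64, SE 0.129, adjusted p = 0.000678). COL23A1 was at 1.84 and 1.70 CPM in shCon and 0.849 and 1.32 CPM in shUBXN1, also without overlap. It missed the threshold (log2 fold change -0.71, SE 0.385, adjusted p = 0.134), though it passed with the GC trend removed (-1.02, adjusted p = 0.0354). COL13A1 had 0 to 2 counts and COL25A1 none. The remaining chains, COL26A1 and COL28A1, had 0 to 7 and 3 to 9.92 counts.

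Among the enzymes that act inside the cell, the catalytic subunits of prolyl 4-hydroxylase were higher and the chaperone was lower. P4HA1 was at 26.5 and 24.3 CPM in shCon and 50.8 and 49.8 CPM in shUBXN1, a 1.98-fold difference (log2 fold change 0.98, SE 0.0856, adjusted p = 2.99e-07). P4HA2 was at 28.5 and 24.7 CPM in shCon and 37.3 and 36.2 CPM in shUBXN1 (log2 fold change 0.47, SE 0.0941, adjusted p = 0.000746). Neither gene's groups overlapped, and P4HA1 rose from 43.2% and 44.5% to 52.6% and 52.8% of the summed P4HA TPM. P4HA3 had 0 to 4 counts.

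SERPINH1 (chr11:75562056-75572783 in GRCh38, GENCODE 44), whose promoter is printed above, was at 139 and 142 CPM in shCon and 54.4 and 56.1 CPM in shUBXN1. The libraries of each group lay within a few CPM of each other and far from the other group, a 2.55-fold lower level in shUBXN1 (log2 fold change -1.35, SE 0.0733, adjusted p = 3.23e-09). Relative to the summed collagen TPM, SERPINH1 stood at 0.209 and 0.216 in shCon and at 0.0709 and 0.0750 in shUBXN1.

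The lysyl hydroxylases moved in different directions. PLOD1 fell from 148 and 151 CPM to 118 and 125 CPM (log2 fold change -0.30, SE 0.0729, adjusted p = 0.00293) and PLOD2, which hydroxylates the telopeptide lysines used in crosslinks, from 188 and 175 CPM to 126 and 129 CPM (-0.51, SE 0.0736, adjusted p = 4.01e-05). PLOD3, which also adds sugars to collagen, was at 207 and 218 CPM in shCon and 247 and 271 CPM in shUBXN1 (0.29, SE 0.0772, adjusted p = 0.00585). In none of the 3 did the groups overlap, though the share of all genes without overlap was not counted. With the GC trend removed PLOD3 was at 0.072 (adjusted p = 0.483), and its call was also lost without shCon replicate 1 (adjusted p = 0.143), while that of PLOD1 was lost without shCon replicate 2 (adjusted p = 0.0618). The sum of the 3 stayed within 346 to 352 TPM in all 4 libraries, while PLOD3 went from 42.4% and 44.2% of it in shCon to 54.5% and 55.7% in shUBXN1 and PLOD2 from 28.9% and 26.7% to 20.9% and 19.9%.

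**Figure D4:**
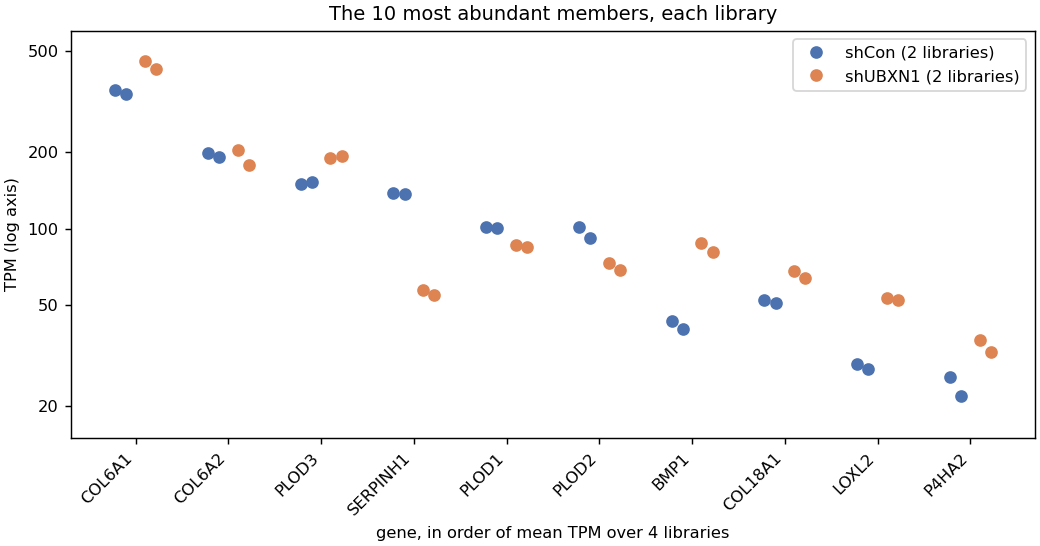
TPM on a log axis (vertical) of the 10 members with the highest mean TPM, in falling order, for the 2 shCon and 2 shUBXN1 libraries (points). The groups are apart for all but COL6A2, but the share of all genes whose groups are apart was not counted. SERPINH1 shows the widest gap, from 138 and 136 TPM in shCon to 57.3 and 54.8 TPM in shUBXN1.

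BMP1 encodes the proteinase that removes the C-propeptide of fibrillar procollagens and so starts fibril assembly. It was at 76.5 and 72.9 CPM in shCon and 146 and 145 CPM in shUBXN1. Both shUBXN1 libraries were almost equal and well above shCon, a 1.95-fold difference (log2 fold change 0.96, SE 0.0727, adjusted p = 7.56e-08). Of the BMP1 exon bases, 6.52% are shared with exons of other genes on the same strand, where strand cannot tell the reads apart.

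Of the 5 lysyl oxidases, which oxidise lysines so that collagen and elastin fibers crosslink, 4 were higher and LOX passed in neither direction. LOXL2, the most abundant, was at 53.5 and 52.5 CPM in shCon and 91.3 and 96.5 CPM in shUBXN1, a 1.77-fold difference (log2 fold change 0.82, SE 0.0747, adjusted p = 4.4e-07). LOXL4 was at 2.81 and 4.85 CPM in shCon and 13.2 and 12.7 CPM in shUBXN1 (log2 fold change 1.77, SE 0.207, adjusted p = 5.53e-06). In both genes the groups were far apart. LOXL1 was at 22.6 and 22.2 CPM in shCon and 29.2 and 30.5 CPM in shUBXN1 (log2 fold change 0.41, SE 0.0928, adjusted p = 0.00164), but 0.053 with the GC trend removed (adjusted p = 0.663). LOXL1-AS1 lies opposite 9.21% of the exon bases of LOXL1, and P4HA2-AS1 opposite 5.41% of those of P4HA2. LOXL2 shares 2.0% of its exon bases with other genes on the same strand, mainly ENTPD4.

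LOXL3 was at 0.525 and 0.170 CPM in shCon and 1.41 and 1.07 CPM in shUBXN1 (log2 fold change 1.79, SE 0.546, adjusted p = 0.0119). It would not have entered the test without shUBXN1, where it was high, so this is no independent sign of a difference. The log2 fold change was 2.83 without shCon replicate 1. The call was lost without shCon replicate 2 (1.23, adjusted p = 0.0980) or shUBXN1 replicate 1 (1.57, adjusted p = 0.0559). Of its exon bases 25.5% lie opposite HTRA2, whose reads cannot be told apart where strand was not used. LOX was at 2.06 and 2.60 CPM in shCon and 2.63 and 1.88 CPM in shUBXN1, with overlapping groups (log2 fold change -0.04, SE 0.318). The summed level of the family was 51.6 and 50.3 TPM in shCon and 90.0 and 86.8 TPM in shUBXN1. LOXL2 made up 56.8% and 55.4% of it in shCon and 59.1% and 60.2% in shUBXN1, and LOXL4 3.09% and 5.30% in shCon and 8.82% and 8.21% in shUBXN1.

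**Figure D5:**
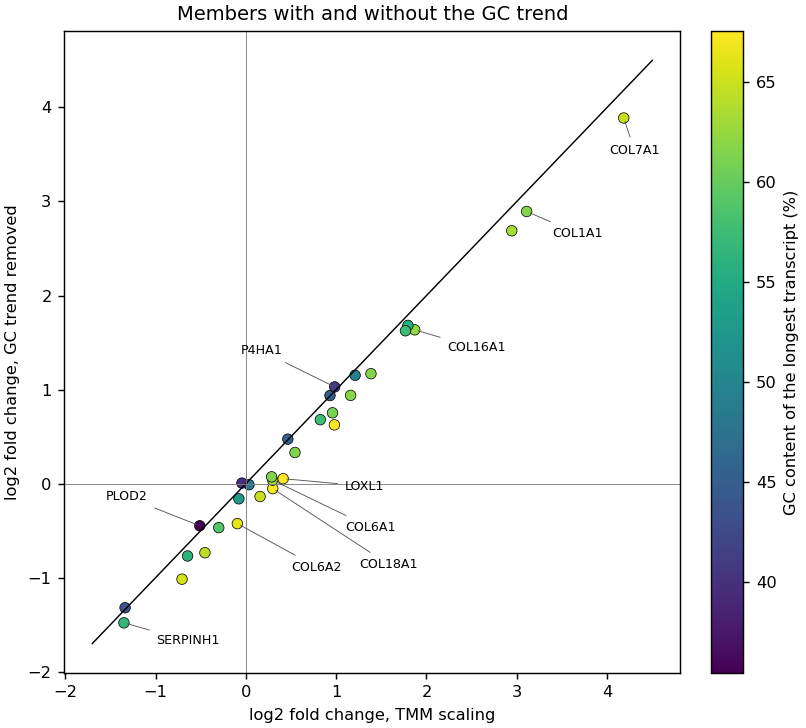
Log2 fold change of shUBXN1 over shCon in the TMM-scaled fit (horizontal axis) against the same with each library's GC trend removed (vertical axis) for 32 members tested, all but COL5A1, colored by the GC content of the longest transcript in percent, with a line of equality. GC-rich members lie below the line, and COL6A1, COL18A1 and LOXL1 come to lie near 0, whereas COL7A1, COL1A1, P4HA1 and SERPINH1 stay far from it.

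The calls of 15 members stood in the same direction in each of the 12 other settings, leave-one-out fits included, in which they could be tested. COL1A1, COL5A1 and COL11A2 could not be tested with at least 10 counts in every library, and they entered the fit reported only through shUBXN1. The 15 were COL7A1, COL1A1, COL5A1, COL11A2, COL16A1, COL27A1, COL4A2, P4HA1, P4HA2, BMP1, LOXL2 and LOXL4 among the higher genes, and SERPINH1, PLOD2 and COL17A1 among the lower. The other 11 called members lost their call in at least 1 setting.

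Further genes of collagen folding, secretion and trimming were mixed. Of 27 such partner genes 21 were tested, 8 were higher and 7 were lower (38.1% and 33.3% of those tested, beside 28% and 28.2% of all genes), and the median log2 fold change was 0.16. Without shCon replicate 1 or 2 the lower genes were 3 in each case, without shUBXN1 replicate 1 they were 4, and under total count scaling 11 were higher and 3 lower. Over all genes, 5324 were higher and 3969 lower under that scaling. PCOLCE, which enhances procollagen cleavage by BMP1, was at 1.35 and 1.36 CPM in shCon and 7.35 and 5.68 CPM in shUBXN1 (log2 fold change 2.26, adjusted p = 4.22e-06). TLL2, a BMP1-like proteinase, had 2 and 2 counts in shCon and 13 and 15 in shUBXN1, and P3H3, a prolyl 3-hydroxylase family member, went from 2 and 1 counts to 34 and 17, a ratio of 17.7 with a 95% exact counting interval of 5.73 to 88.7. Both were under the filter level in both shCon libraries and entered the test through shUBXN1, so their calls are no independent sign of a difference. Among the genes that fell, P3H2, a prolyl 3-hydroxylase, had a log2 fold change of -0.98 (adjusted p = 0.0115), COLGALT1, which puts galactose on hydroxylysine, -0.76 (adjusted p = 1.43e-06) and CRTAP, a partner of prolyl 3-hydroxylase, -0.46 (adjusted p = 7.92e-05). P4HB, the subunit that pairs with the P4HA chains, was at 1424 and 1466 CPM in shCon and 1537 and 1752 CPM in shUBXN1 and did not pass (adjusted p = 0.0956).

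Of 17 genes for collagen receptors and fibril-associated matrix proteins 14 were tested, 3 were higher and 6 lower (21.4% and 42.9% of those tested, beside 28% and 28.2% of all genes), with a median log2 fold change of -0.19. SPARC, a collagen-binding matrix protein, had 7 and 8 counts in shCon and 49 and 50 in shUBXN1, and BGN, the proteoglycan biglycan, 4 and 3 in shCon and 29 and 19 in shUBXN1. Both were under the filter level in both shCon libraries and entered the test through shUBXN1, so 1 of the 3 higher genes, FBN1, was above that level in both groups. FBN1, the microfibril protein fibrillin, rose from 59.4 and 52.0 CPM to 108 and 110 CPM (0.97, adjusted p = 1.92e-07). TNC, the matrix glycoprotein tenascin C, fell from 30.3 and 28.9 CPM to 1.45 and 1.5 CPM (-4.32, adjusted p = 5.71e-11). LUM, the fibril-binding proteoglycan lumican, fell from 31.7 and 32.3 CPM to 13.9 and 16.7 CPM (-1.06, adjusted p = 1.28e-06), and DCN, decorin, from 17 and 13 counts to 2 and 1, a ratio of shCon to shUBXN1 of 9.60 with a 95% exact counting interval of 2.99 to 49.2. DCN was under the filter level in both shUBXN1 libraries and entered the test through shCon. LUM and DCN are also on the list of fibroblast and stellate cell markers given above. Counting intervals cover counting error only.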

How the data were processed

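RNA was measured in 4 libraries of MHCC97H cells, grouped by the labels. By the study's methods, paired ends were aligned with Hisat2 to GRCh38, TPM was calculated and limma was used, while the submitters' processing notes list HISAT2 2.0.4, StringTie 1.3.0 and GRCh37. The labels also name another library kit than the methods. The authors deposited a table of expected counts, which carry up to 2 decimals and had not been scaled, and of each gene's length. The counting tool, annotation release and strand setting are not given in the sources used here, so members that overlap another gene are uncertain. Coordinates are those of GENCODE 44 or RefSeq (GRCh38), not of the table. Symbols were found for 61369 of 61541 gene IDs (99.7%).

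The expected counts were rounded, filtered with filterByExpr, scaled by TMM (factors 0.967 to 1.06) and tested with edgeR 4.0.16 (glmQLFit, glmQLFTest; R 4.3.3) on group alone, with Benjamini-Hochberg adjustment over all genes tested. A standard error is the log2 fold change over the square root of F. CPM values are TMM-scaled. The test was checked on simulated counts. Alternatives were DESeq2 1.42.0, limma 3.58.1 on log2(TPM + 1), total count scaling, other filters, unrounded counts, a replicate block, removal of a loess trend on GC content (span 0.3) and each library left out. Every member was named. Those past a fold change of 2, and the 10 with the highest mean TPM, are given with each library's value, as are others tested, and the 3 highest and 3 lowest called genes stand for each of the other lists. The members and lists were chosen with earlier results of these data known. A total of 10 collagen symbols of other gene types were left out.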

Additional observations from a re-analysis of the deposited data

How the results depend on the processing

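With all 4 libraries kept, the counts of members higher (21) and lower (5) at the adjusted p stayed within 1.5 times under the alternatives run, as did UBXN1 itself. They were between 15 and 21 higher and 4 and 7 lower. Over the 14974 to 30333 genes tested in those settings, between 3851 and 5324 were higher and between 3969 and 5121 lower. The median log2 fold change of the members, 0.47, was 0.33 with the GC trend removed, 0.33 with at least 10 counts in every library, 0.36 with limma on log2(TPM + 1), 0.55 under total count scaling and 0.40 to 0.53 with a library left out. Members higher at a fold change of 2 were 5 with limma on log2(TPM + 1), in place of 10, while over all genes tested 1028 were higher in place of 1997. Members lower at that fold change were 1 with DESeq2, with at least 10 counts in every library and with limma, in place of 2, and 1 to 3 with a library left out. The partner genes lower, 7, were 4 with limma, 3 under total count scaling and 3 to 7 with a library left out. The receptor and matrix genes higher, 3, were 1 with at least 10 counts in every library and 5 under total count scaling. Over all genes, those lower at a fold change of 2 were 906 with DESeq2, 746 with at least 10 counts in every library and 524 with limma, in place of 1027. Those lower at the adjusted p were 3998 with limma and 3969 under total count scaling, in place of 4751. Those higher were 4449 with at least 10 counts in every library and 5324 under total count scaling, in place of 4727. The limma alternative shrinks low genes by its pseudocount, and the higher count minimum tests fewer genes; for the other settings the cause was not tested.

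Directions turned for COL18A1 (-0.052), COL5A2 (-0.011) and COL9A2 (-0.14) with the GC trend removed, for COL6A3 (0.0062) under total count scaling, and for LOX with the GC trend removed (0.0060), with limma (0.0057) and under total count scaling (0.047). With a library left out, values ran from -0.046 to 0.12 for COL5A2, from -0.80 to 0.014 for COL5A3, from -0.19 to 0.050 for COL6A3, from -0.0053 to 0.31 for COL9A2 and from -0.31 to 0.18 for LOX, turning once for each gene and, for LOX, also at 0.13. Of these, COL18A1 alone was called in the fit reported.

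The labels number the replicates, but numbers were not taken as pairs: the deviations of same-numbered libraries correlated at 0.0635 over all genes tested and 0.138 over those with a mean log2 CPM above 2, and 2 libraries per group give too few pairs to read pairing from the data. With the replicate number as a block, 20 members were higher and 5 lower, COL8A2 losing its call (adjusted p = 0.0534), against 5000 higher and 5023 lower genes overall. Depth limits the 24 members not tested and those near the filter, and 2 libraries per group leave 2 residual degrees of freedom. With a library left out, the lone library of its group is assumed to vary like those of the other.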
